A study of Mus musculus with 12 samples.

Results

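Zeb2 and Rbpj were examined in mouse RAW264.7 cells, an established monocyte and macrophage line that can become osteoclasts, for where the bromodomain proteins BRD2 and BRD3 were called by chromatin immunoprecipitation and sequencing (ChIP-seq). The members are the regions of the 8 deposited peak lists that touch either gene or lie within 50 kb of a gene end. They number 22 of 16188 regions in all, 9 at Zeb2 and 13 at Rbpj. Both genes were chosen by the width of their BRD3 regions in these same lists, so widths and their ranks are given as descriptions, with no test.

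The cells were untreated, or held for 4 h with RANKL at 50 ng/ml, with I-BET at 500 nM, or with both agents. RANKL is the signal by which macrophage precursors are turned to osteoclasts, and I-BET compounds occupy the bromodomains of BET proteins. The labels give the same medium and fixation to all groups. Each antibody and treatment has 1 library, and the 4 input libraries were not used here. Differences between treatments therefore carry no replicate error and were not tested. The lists give no read counts, so depth is unknown. A missing region means that none was listed, not that the protein was absent. The BRD3 lists held 2232 to 3840 regions and the BRD2 lists 245 to 1716, the shortest being that of BRD2 with both agents. Of 10 macrophage marker genes, 7 had a BRD3 region in the gene or within 1 kb in untreated cells, 6 did with RANKL, 1 under I-BET and 0 under both. For BRD2 the counts were 2, 5, 5 and 3 in the same order. The share of all genes at this limit of 1 kb is not given, and the lists differ in length, so these counts are descriptions only. Itgam and Adgre1 had none in any list, and neither did the T cell, B cell, epithelial and erythroid markers. Among mesenchymal markers, Runx2 had one in 6 of the 8 lists.

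BET proteins read acetylated histones and help RNA polymerase move into genes, and wide stretches of BET binding are known at genes that set a cell's identity. Zeb2 encodes a zinc finger and homeodomain factor that binds E-boxes and mostly represses, recruiting CtBP and histone deacetylases; it is known for epithelial to mesenchymal transition and for keeping tissue macrophages in their identity. Rbpj encodes the DNA-binding factor of the Notch pathway, which activates with Mastermind proteins when Notch is cleaved and otherwise holds corepressors such as SPEN. In osteoclast precursors RBPJ is known as a brake on differentiation.

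Zeb2 (GRCm38, chromosome 2, 44983512 to 45117442, minus strand, 133931 bp) has 4 start sites in the RefSeq promoter table, and Rbpj (chromosome 5, 53555779 to 53657445, plus strand, 101667 bp) has 2. The record of Rbpj begins upstream of both listed start sites, at -34.57 kb from the first. Upstream distances to the record are therefore shorter than those to the start sites. The promoters below, 250 bases before to 50 after a start site, are shown because the lists treated them differently. Those at the outermost and innermost Zeb2 start sites lay in the regions of all 5 lists that had Zeb2 regions, except that untreated BRD2 covered 261 of 300 bases of the outermost. The one between lay in 1 list, BRD3 in untreated cells. The Rbpj promoter lay in all 4 BRD3 lists and 1 BRD2 list, that of RANKL. They are reference sequence of RefSeq GRCm38.p6, 5′ to 3′ along the gene, with motif matches in capitals.
Zeb2, start site 45117442, chr2:45117393-45117692, minus strand: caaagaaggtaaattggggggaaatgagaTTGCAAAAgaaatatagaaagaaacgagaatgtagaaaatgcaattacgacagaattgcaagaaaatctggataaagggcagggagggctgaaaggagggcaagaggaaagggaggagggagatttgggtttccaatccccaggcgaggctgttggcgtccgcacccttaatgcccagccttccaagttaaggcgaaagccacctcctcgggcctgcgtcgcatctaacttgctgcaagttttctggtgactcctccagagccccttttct
Zeb2, start site 45113253, chr2:45113204-45113503, minus strand: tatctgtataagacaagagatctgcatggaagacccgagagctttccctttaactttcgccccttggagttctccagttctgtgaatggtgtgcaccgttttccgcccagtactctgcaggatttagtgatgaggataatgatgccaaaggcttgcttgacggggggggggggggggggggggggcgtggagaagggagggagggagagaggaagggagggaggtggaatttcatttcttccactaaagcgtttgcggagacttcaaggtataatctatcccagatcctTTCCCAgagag
Zeb2, start site 45110277, chr2:45110228-45110527, minus strand: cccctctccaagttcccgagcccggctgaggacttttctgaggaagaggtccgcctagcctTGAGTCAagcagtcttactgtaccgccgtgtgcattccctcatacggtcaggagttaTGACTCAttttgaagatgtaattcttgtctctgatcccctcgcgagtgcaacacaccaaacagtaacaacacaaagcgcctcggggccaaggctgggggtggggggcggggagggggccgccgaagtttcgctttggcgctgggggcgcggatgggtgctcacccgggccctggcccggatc
Rbpj, start site 53590346, chr5:53590096-53590395, plus strand: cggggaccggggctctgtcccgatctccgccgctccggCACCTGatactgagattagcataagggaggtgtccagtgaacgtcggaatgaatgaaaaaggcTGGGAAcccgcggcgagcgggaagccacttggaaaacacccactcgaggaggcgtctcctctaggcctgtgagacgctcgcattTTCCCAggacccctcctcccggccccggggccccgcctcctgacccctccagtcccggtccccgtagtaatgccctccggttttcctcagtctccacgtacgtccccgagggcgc

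Both strands were searched for GAGGAAGT (PU.1), TGANTCA (AP-1), TGGGAA (RBPJ), CACGTG (the MYC E-box), CAGGTG (the ZEB E-box) and TTGCNNAA (C/EBP), and no 2 matches overlapped. The innermost Zeb2 promoter held 2 AP-1 matches, at bases 62 and 119, and 7.81% of the 32851 promoters in the table held at least 1. The outermost held a C/EBP match at base 30 (10.8% of promoters). The one between held an RBPJ match at base 290, and the Rbpj promoter held RBPJ matches at bases 102 and 186 (25.6% of promoters) and a ZEB E-box at base 39 (20.2%). PU.1 and the MYC E-box, present in 3.20% and 7.15% of promoters, matched none of the 4. The Rbpj promoter has 26 CpG and the innermost Zeb2 promoter 19, against 9 and 8 in the other Zeb2 promoters. These letter matches are descriptions and not binding sites.

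At Zeb2, BRD3 lay over the first stretch of the gene in untreated cells and with RANKL, and had no region in the window with I-BET, alone or with RANKL. In untreated cells there was 1 BRD3 region of 10614 bp, at 45107905 to 45118518. It ran from upstream of the outermost start site into the gene and covered all 4 start sites and the whole of Zeb2os, a non-coding gene at 45111138 to 45114087. It was the widest of the 3668 regions of its list. With RANKL there were 2 BRD3 regions, of 4482 bp (45108592 to 45113073) and 1673 bp (45116127 to 45117799), 3053 bp apart, which ranked 45th and 443rd by width among 3840. Their summed length was 6155 bp. With I-BET and with both agents it was 0 bp.

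The summed BRD3 length with RANKL minus that in untreated cells was -4459 bp, and the gap between the RANKL regions accounts for 3053 bp of it. From the first to the last base called, BRD3 spanned 10614 bp in untreated cells and 9208 bp with RANKL, of which 66.8% was covered. All 6155 bp of the RANKL regions lay inside the untreated region. The single untreated region joined 5 peaks, 2 from peak set 3, 1 from set 5 and 2 from set 7 (numbers in the deposited peak names, with no meaning given). The other Zeb2 regions join 1 peak from each set, so in the untreated list sets 3 and 7 also held 2 separate peaks there. Regions with more than 3 joined peaks made up 1.42% of that list (52 of 3668), and 33 of its 107 regions over 3 kb. When regions less than 4 kb apart were joined, a distance chosen after the gaps were seen, both treatments had 1 BRD3 region at Zeb2, of 10614 bp and 9208 bp. When only regions of exactly 3 joined peaks were kept, Zeb2 had 0 bp in untreated cells and 6155 bp with RANKL, so the order turned.

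BRD2 gave Zeb2 the same pair of regions in 3 lists, that of I-BET included. The summed length was 5126 bp in untreated cells, 5234 bp with RANKL, 5750 bp under I-BET and 0 bp with both agents. The inner region measured 3316 bp, 3448 bp and 3227 bp, in that order, and the outer one 1810 bp, 1786 bp and 2523 bp. RANKL regions covered 95.4% of the untreated BRD2 bases, and I-BET regions 88.9%. The gap was 2930 bp, 3168 bp and 3499 bp wide. The 2 middle start sites, 4.16 kb and 4.19 kb into the gene, lay in the gap in all 4 lists that had 2 regions. Stretches of 3026 bp (45109598 to 45112623) and 1527 bp (45116127 to 45117653) lay in a region of all 5 lists with a call. The first holds the innermost promoter and part of Zeb2os, so binding at the 2 genes cannot be told apart there.

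**Figure D1:**
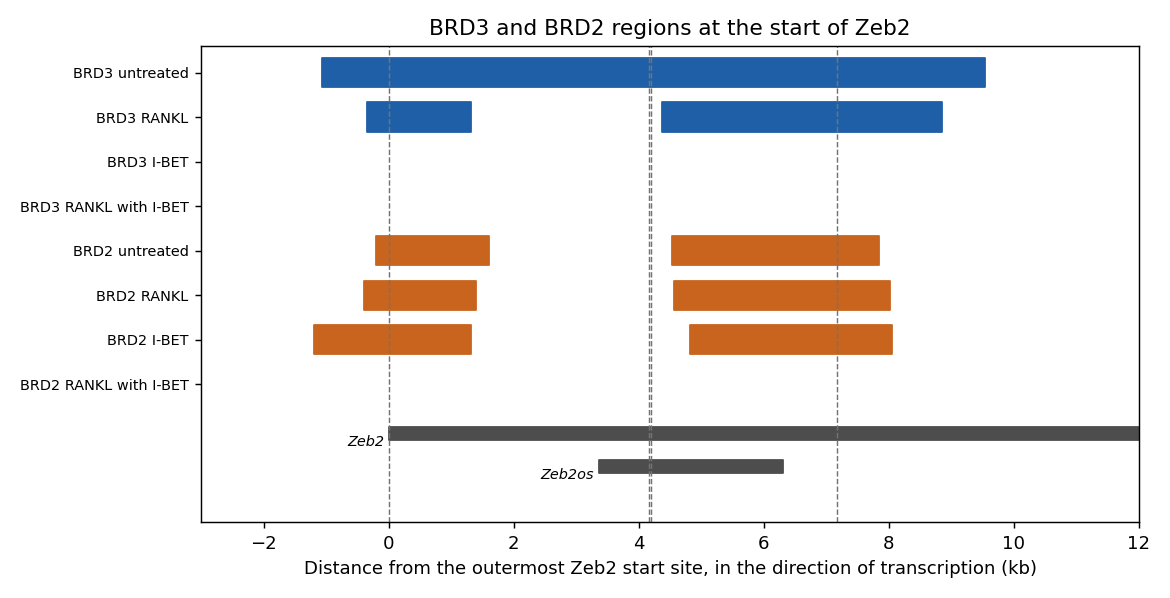
Regions at the start of Zeb2 in the 8 lists (rows), by distance in kb from the outermost start site in the direction of transcription; dashed lines are RefSeq start sites and grey bars gene records. The untreated BRD3 list has 1 region of 10614 bp where 4 other lists have 2 regions with a gap of 2930 to 3499 bp, and 3 lists have none.

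At Zeb2 the antibodies differed under I-BET, where BRD3 had no region and BRD2 had 2. Of all 3668 untreated BRD3 regions, 46.8% had no overlapping region with I-BET, and of the 107 over 3 kb, 82 had none (76.6%). Of the 1716 regions without one, 297 overlapped a BRD2 region of I-BET cells (17.3%), as did 37 of the 82 wide ones (45.1%). Zeb2 was among these. Both BRD2 regions of I-BET cells lacked a BRD3 counterpart there, as did 79.9% of all BRD2 regions in that list. The 2 BRD2 regions of untreated cells both had an I-BET counterpart, where 52.8% of that list had none, and both had a RANKL counterpart, where 43.3% had none. That list held 7 regions over 3 kb, the inner Zeb2 region among them. Of these, 3 had no I-BET counterpart (42.9%) and 0 had no RANKL counterpart, so keeping the RANKL overlap was not particular to Zeb2. Both agents together left neither BRD2 region of RANKL cells (90.8% of that list had no counterpart) nor either one of I-BET cells (85.6%). The BRD2 list with both agents has 245 regions, so its lack of Zeb2 is near what most regions show.

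At Rbpj, BRD3 lay in 2 places in untreated cells and in 3 with RANKL, and in 1 with I-BET. The summed length of the BRD3 regions was 7835 bp in untreated cells, 18590 bp with RANKL, 1768 bp under I-BET and 1811 bp with both agents. The places are the start sites, a cluster upstream that ends about 8 kb before the gene record, and a far upstream element. Relative to the first listed start site, the RANKL BRD3 region of the cluster lies at -53.44 to -42.88 kb. That of the far element lies at -81.72 to -78.64 kb. For BRD2 the summed length was 834 bp in untreated cells and 7180 bp with RANKL, and 0 bp under I-BET and with both agents. The RANKL lists were thus the longest of each antibody at this gene, and those with I-BET the shortest.

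The upstream cluster held the widest region of the RANKL list of BRD3. In untreated cells BRD3 had 3 regions there, of 2196 bp (53539184 to 53541379), 1050 bp (53542876 to 53543925) and 1173 bp (53546151 to 53547323). The gaps between them were 1496 bp and 2225 bp. With RANKL 1 region of 10554 bp, at 53536909 to 53547462, covered all 3 and both gaps and reached 2275 bp further upstream. It ended 8.32 kb before the Rbpj record and touched no protein-coding gene. No other RANKL region overlapped 3 untreated regions (1 of 3840), and 7 overlapped at least 2. Rbpj was chosen by the width of its regions, and a wider region can span more of them, so this count is a description. The region joined 9 peaks, 2 from set 3, 4 from set 5 and 3 from set 7, so each set had at least 2 separate peaks in it. With exactly 3 joined peaks required, Rbpj had 8036 bp of BRD3 with RANKL in place of 18590 bp, and 7835 bp in untreated cells. By span the cluster measured 8140 bp in untreated cells and 10554 bp with RANKL, a smaller difference than the 4419 bp and 10554 bp of called length. With I-BET and with both agents the cluster had no region of either antibody.

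BRD2 lay only at the proximal end of this cluster, over the non-coding gene Gm40304 (53546181 to 53547114). Its region was 834 bp wide in untreated cells (53546449 to 53547282) and 1639 bp with RANKL (53545924 to 53547562). The untreated one lay wholly inside the RANKL one and inside the BRD3 regions of both treatments. Those 834 bp were the one stretch of the cluster in 4 lists. Of the RANKL BRD3 region, 14.6% was also in a BRD2 region, against 18.9% of the untreated BRD3 cluster in untreated cells.

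The far upstream element had regions with RANKL alone. BRD3 had 3075 bp at 53508631 to 53511705, and BRD2 had 1749 bp at 53509160 to 53510908, inside it. They lie 44.1 kb and 44.9 kb from the Rbpj record. Neither antibody had a region there in the other treatments. This was 1 of 3 RANKL BRD3 regions at Rbpj with no untreated overlap, where 28.0% of that whole list had none. For BRD2, 2 of 3 RANKL regions had none, where 80.9% of the list had none, so that count is near the list's own share.

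The start-site region of Rbpj was the member found with I-BET for BRD3. Its width was 3416 bp in untreated cells (53588451 to 53591866), 4961 bp with RANKL (53586883 to 53591843), 1768 bp with I-BET (53588883 to 53590650) and 1811 bp with both agents (53588845 to 53590655). The 2 I-BET regions differed by 38 bp at one edge and 5 bp at the other. The narrower one lay inside the region of every other list with a call here, and covered 51.8% of the untreated region, and the one with both agents covered 36.5% of the RANKL region. Among the 25 untreated regions over 3 kb that had an I-BET counterpart, the share covered had a median of 32.8% and ran from 8.93% to 84.3%. Among the 20 such RANKL regions it had a median of 21.4% and ran from 6.90% to 99.9%. BRD2 had 1 region here, of 3792 bp with RANKL (53588238 to 53592029), and none in the other 3 lists. Both listed promoters lay within each of these regions.

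**Figure D2:**
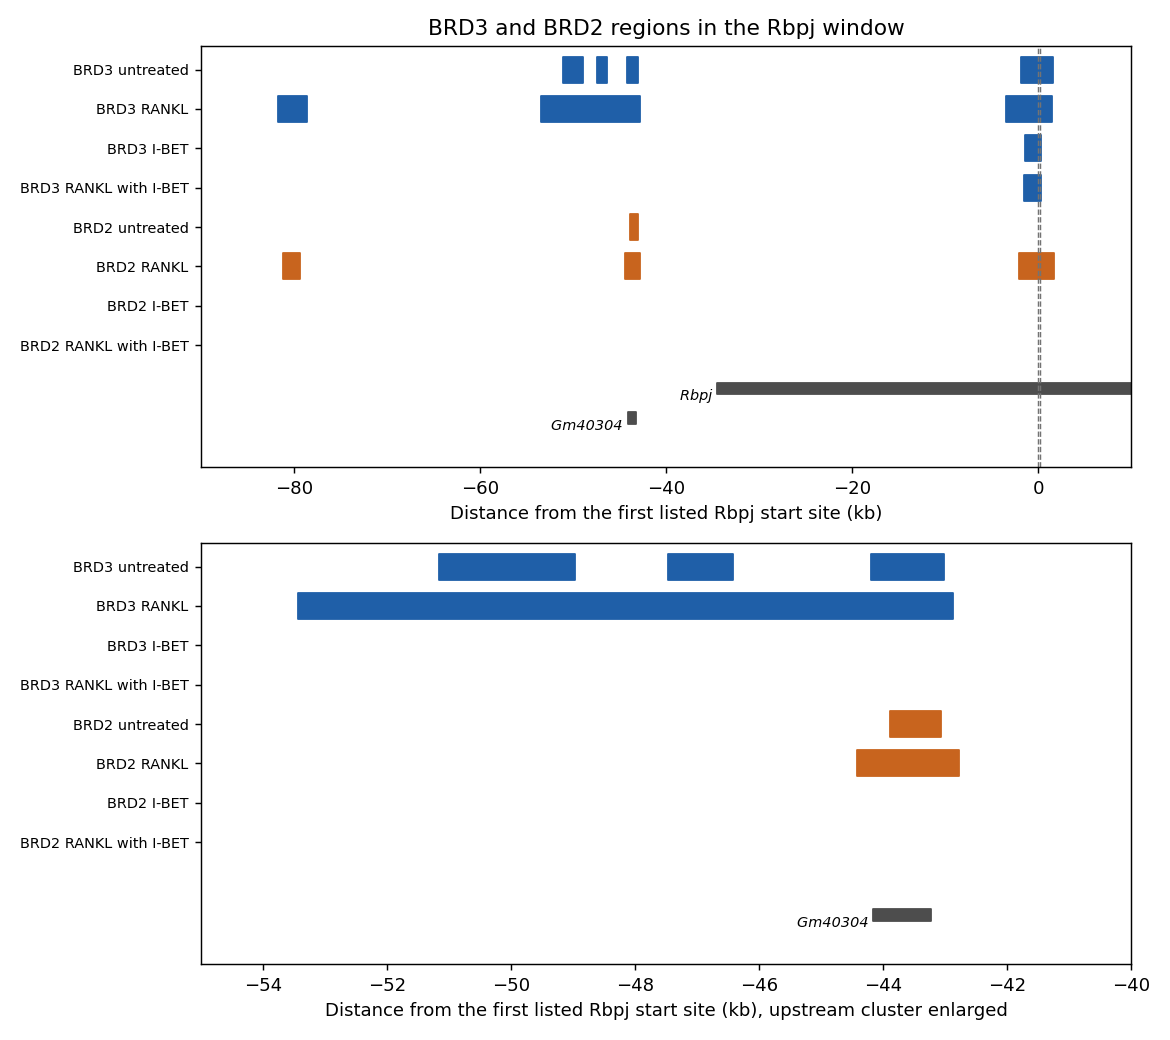
Regions in the Rbpj window in the 8 lists (rows), by distance in kb from the first listed start site, with the upstream cluster enlarged below; dashed lines are start sites and grey bars gene records. RANKL gives 3 places for each antibody, with BRD3 over 10554 bp of the cluster, and both I-BET lists of BRD3 give the start-site region alone.

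Counted by region, I-BET alone left 3 of 4 untreated BRD3 regions at Rbpj without a counterpart and 1 of 1 at Zeb2, beside 46.8% in the whole list. Added to RANKL it left 2 of 3 at Rbpj and 2 of 2 at Zeb2 without one, beside 35.6% in the whole list. Among the 130 RANKL regions over 3 kb the share was 84.6%, so wide regions in general often had none. All 5 untreated BRD3 regions at the 2 genes had a RANKL counterpart, where 24.6% of the list and 12.1% of its regions over 3 kb had none. Most regions of that list thus had one too. The BRD2 regions of untreated and RANKL cells all overlapped a BRD3 region of the same treatment. In those whole lists 45.5% and 54.9% did not, and among their regions over 3 kb 14.3% and 12.3% did not. Both genes were chosen by the width of their BRD3 regions, so the choice itself favoured this overlap.

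**Figure D3:**
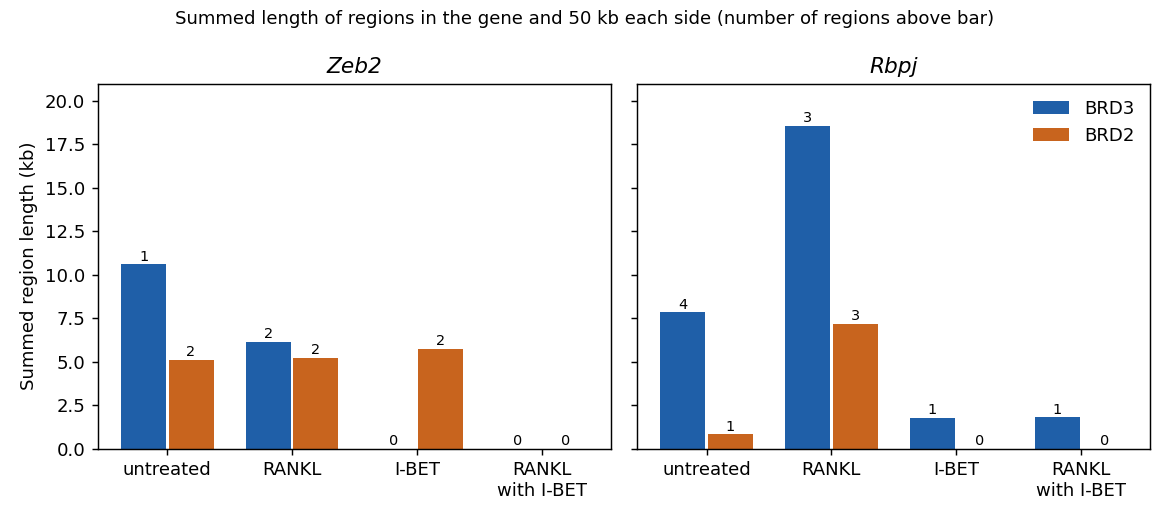
Summed length in kb of the regions in each gene and 50 kb each side, by treatment, for BRD3 and BRD2; the number above a bar is the count of regions, and each bar is 1 library. Rbpj is longest with RANKL, at 18590 bp for BRD3, while Zeb2 has 10614 bp of BRD3 in untreated cells and 5750 bp of BRD2 with I-BET.

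Set beside all 21887 protein-coding genes measured the same way, a BRD3 region nearby was common and a BRD2 region less so. A BRD3 region lay in the gene or within 50 kb for 37.4% of genes in untreated cells and 37.4% with RANKL, and for 28.1% under I-BET and 33.1% under both agents. For BRD2 the shares were 7.47%, 20.1%, 13.0% and 3.56%. Rbpj ranked 3rd by summed BRD3 length with RANKL and 79th in untreated cells. Zeb2 ranked 46th in untreated cells and 164th with RANKL. For BRD2, Zeb2 ranked 2nd in untreated cells, 63rd with RANKL and 25th under I-BET, and Rbpj ranked 843rd in untreated cells and 23rd with RANKL. From untreated to RANKL the BRD3 length at Rbpj was 10755 bp longer, with 1 gene above it. With lists of equal length by score, Rbpj had 7835 bp in untreated cells and 8036 bp with RANKL. The difference at Zeb2, -4459 bp, had 13 genes below it. Neighbouring genes share regions in such ranks.

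**Figure D4:**
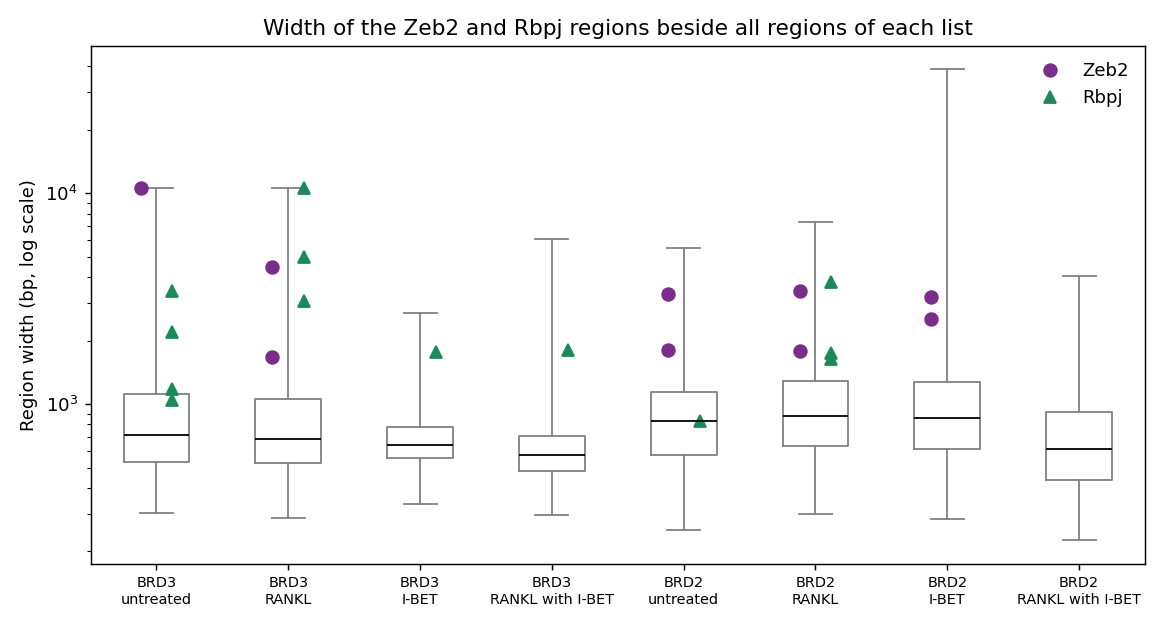
Width of each Zeb2 (circles) and Rbpj (triangles) region in bp on a log axis, by list; boxes are the quartiles of all regions of the list with the median as a line, and whiskers run from the narrowest to the widest. The highest BRD3 point is Zeb2 at 10614 bp in untreated cells and Rbpj at 10554 bp with RANKL.

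The authors' score, a value per region used here only within its list, was low for both regions over 10 kb. The 10614 bp Zeb2 region scored 39.2 and lay at the 7.91th percentile of its list, and the 10554 bp Rbpj region scored 35.3, at the 1.30th percentile. Regions over 3 kb had a median score at the 44.1th and 46.9th percentile of those lists. The RANKL Zeb2 regions of BRD3 scored 37.3 and 36.3, at the 3.96th and 2.58th percentile. In the upper 50% of each list by score, BRD3 at Zeb2 was thus 0 bp in untreated and RANKL cells, and at Rbpj 4419 bp and 8036 bp. The start-site region of Rbpj scored 64.3 in untreated cells, 158 with RANKL, 78.0 under I-BET and 116 under both, at the 40.4th, 64.5th, 62.9th and 41.6th percentile. For BRD2 the inner Zeb2 region lay at the 85.1th percentile in untreated cells, the 33.4th with RANKL and the 25.8th under I-BET, and the outer one at the 58.3th, 74.9th and 82.4th. The BRD2 regions of Rbpj lay at the 45.8th percentile in untreated cells, and with RANKL at the 13.1th, 54.7th and 37.4th from the far element to the start sites.

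The limit of 50 kb cuts through a longer run of regions upstream of Rbpj. Just outside it, with RANKL, BRD3 had 2392 bp at 53489908 to 53492299, 63.5 kb from the gene record, and just inside it lies the far upstream element at 44.1 kb. At 99.9 to 103 kb, BRD3 had 1994 bp in untreated cells, and 1479 bp and 1999 bp with RANKL. BRD2 had 1218 bp there with RANKL. Further out, at 117 to 118 kb, a BRD3 region measured 1328 bp in untreated cells and 1856 bp with RANKL, and a BRD2 region 1746 bp with RANKL and 698 bp with I-BET. At Zeb2 every member touches the gene. The nearest regions outside lay 56.1 to 56.3 kb downstream, inside the Gtdc1 record at its edge nearest Zeb2. There BRD3 had 489 bp with RANKL, 718 bp with I-BET and 445 bp with both agents. Upstream, at 79.9 kb, BRD3 had 510 bp with RANKL. At 127 to 128 kb upstream, BRD3 had 2318 bp in untreated cells and 2331 bp with RANKL, and BRD2 had 1584 bp with I-BET. Gm28643 and Mir5129, non-coding genes of the Zeb2 window, and Cckar, a hormone receptor gene of the Rbpj window, had no region.

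Genes of the Notch pathway had BRD3 regions nearby in 27 of 42 cases in untreated cells, 23 with RANKL, 16 under I-BET and 20 with both agents, which is 64.3%, 54.8%, 38.1% and 47.6% of the list, beside 37.4%, 37.4%, 28.1% and 33.1% of all genes. None of these had a region over 3 kb in untreated cells, and 1 did with RANKL, Spen, the gene of the RBPJ corepressor. Spen had a summed BRD3 length of 6855 bp in untreated cells, 7571 bp with RANKL, 3194 bp under I-BET and 2486 bp with both. Maml3, a Mastermind coactivator gene, had 3806 bp, 2367 bp, 3696 bp and 3427 bp, and the corepressor gene Ncor1 2505 bp, 1840 bp, 745 bp and 1226 bp. The median over the list was 588.5 bp in untreated cells and 452.5 bp with RANKL, where the median over all genes was 0 bp.

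Among 32 genes of the Zeb2 family and its partners, 18 had a BRD3 region in untreated cells, 18 with RANKL, 16 under I-BET and 14 with both agents. These are 56.2%, 56.2%, 50.0% and 43.8% of the list, beside 37.4%, 37.4%, 28.1% and 33.1% of all genes. Zeb2 itself was the one with a region over 3 kb. Tcf3, an E-box binding factor gene, had a summed BRD3 length of 3654 bp, 3268 bp, 3049 bp and 3280 bp in the 4 treatments, so it was nearly as long with I-BET. Rbbp4, of the NuRD complex, had 2041 bp in untreated cells and 673 bp with I-BET.

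Myeloid transcription factor genes, a list of 36 that holds both Zeb2 and Rbpj, numbered 19 with a BRD3 region in untreated cells, 21 with RANKL, 6 under I-BET and 12 with both. The shares, 52.8%, 58.3%, 16.7% and 33.3%, lay above those of all genes in untreated and RANKL cells (37.4% and 37.4%), below under I-BET (28.1%) and near it with both (33.1%). All 6 with I-BET were among the 19. Members with a BRD3 region over 3 kb numbered 3 in untreated cells and 6 with RANKL. Zeb2 and Rbpj, which were chosen by width, are among them in both treatments. The whole lists held 107 and 130 regions over 3 kb. The share of all genes with such a region is not given, here or for the other gene lists. Spi1, the gene of PU.1, had a summed BRD3 length of 6085 bp in untreated cells, 6587 bp with RANKL, 948 bp under I-BET and 0 bp with both. Fos, which encodes a component of AP-1, had 2046 bp and 9776 bp in untreated and RANKL cells, and Mitf, an osteoclast and pigment cell factor gene, 995 bp and 9328 bp; both had 0 bp with I-BET and with both agents. Mef2c, of the MADS-box factors, had 2224 bp, 6051 bp, 543 bp and 545 bp. Junb, another AP-1 gene, had 7095 bp, 4566 bp, 0 bp and 1388 bp.

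Of 20 genes that restrain or release osteoclast formation, Rbpj included, 8 had a BRD3 region in untreated cells and 10 with RANKL, among them all of the 8. With I-BET 6 had one, and with both agents 6. The shares of 40%, 50%, 30% and 30% lay near those of all genes (37.4%, 37.4%, 28.1% and 33.1%), except with RANKL, where the list was higher. Lilrb4a, an inhibitory receptor gene, had 6582 bp, 5015 bp, 0 bp and 0 bp of BRD3, and 4403 bp of BRD2 with I-BET where BRD2 had 0 bp in the other 3 lists. Irf8, a repressor of the osteoclast programme, had 1740 bp, 1320 bp, 0 bp and 0 bp of BRD3, and 615 bp of BRD2 with I-BET. Socs3, a cytokine signalling inhibitor gene, had a BRD2 region of 3021 bp with RANKL.

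**Figure D5:**
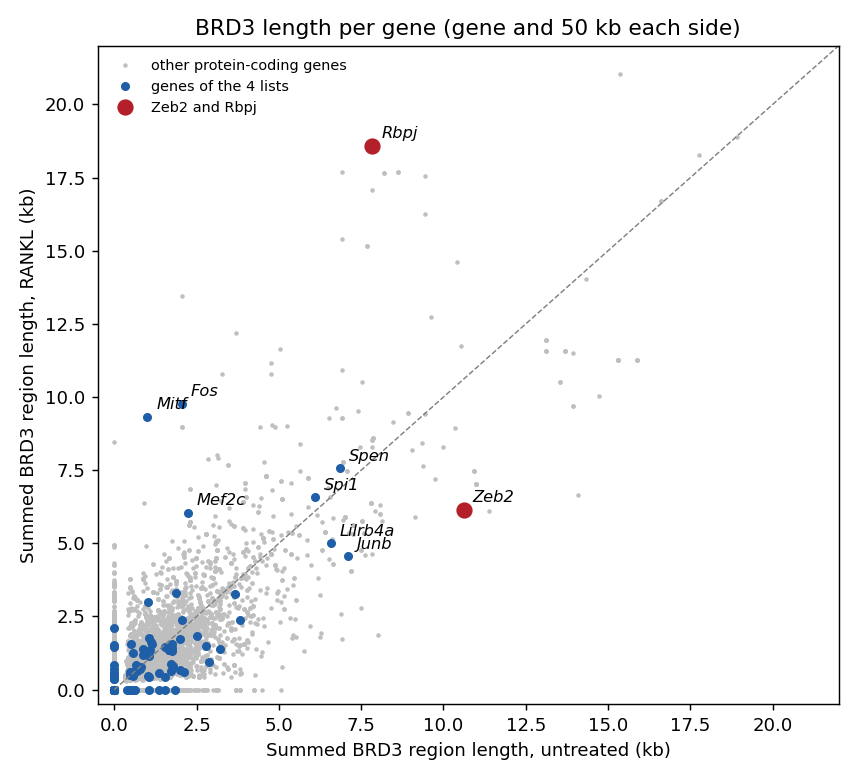
Summed BRD3 region length in kb (gene and 50 kb each side) in untreated cells (x axis) and with RANKL (y axis), for all protein-coding genes (grey), the genes of the 4 lists (blue) and Zeb2 and Rbpj (red); the dashed line marks equal length. Rbpj lies far above the line with Fos and Mitf, and Zeb2 lies below it.

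The genes whose 8 summed lengths were most like those of Zeb2 differed from it by 0.18 to 0.20 of the total length of both, on a scale from 0 to 1 over 8 libraries. In order these were Olfr930, Lrp1, Mybpc3, Adamtsl4 and Cpsf6. Lrp1, a scavenger and lipoprotein receptor gene, had 7837 bp of BRD3 and 1620 bp of BRD2 in untreated cells, 687 bp and 5049 bp with I-BET. The RANKL region of 6587 bp that gave Mybpc3 its place is the one at Spi1, since windows take in neighbours, and the windows of Cpsf6 and Lyz1 on chromosome 10 overlap. For Rbpj the order was Lyz1, Fth1, Slc35a4, Aif1 and Vps8, at 0.17 to 0.19. Lyz1, a lysozyme gene, had 7674 bp of BRD3 in untreated cells, 15147 bp with RANKL, and 0 bp under I-BET and with both. Fth1, the ferritin heavy chain gene, had 9451 bp and 17563 bp, and then 0 bp and 0 bp. The other 3 had BRD3 under I-BET, as Rbpj did: Slc35a4 had 1250 bp, Aif1 2452 bp and Vps8 536 bp. Under both agents these had 737 bp, 2841 bp and 1769 bp.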

How the data were processed

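BRD2 and BRD3 ChIP-seq of RAW264.7 cells gave 8 deposited region lists, 1 per antibody and treatment. The submitters' processing notes name build mm10/GRCm38 and the tools Bowtie2 2.3.4.1, MACS2 2.1.1.20160309 and FastQC; no settings come with them. Peak names in the deposited files show that each region joins peaks from 3 sets numbered 3, 5 and 7, which no source used here explains. The authors' score per deposited region has no stated scale and was used within a list only. Read depth is unknown. Deposited starts were read as BED positions and are printed counted from 1.

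With Python 3.11.15, regions that touch a gene or the 50 kb on each side were counted, and their whole widths summed. Regions with at least 1 bp in common were called overlapping. Genes came from RefSeq GRCm38.p6 (21887 protein-coding on chromosomes 1 to 19, X and Y). Interval code was tested on simulated data. Groups followed the sample titles. Named genes were those in the windows, the top 3 of each list by untreated BRD3 length, list members with a region over 3 kb, and the 5 nearest in pattern to each gene. Members and gene lists were chosen with earlier results of these data known. Alternatives were 2 other windows, clipping, 2 score limits, exactly 3 joined peaks, joining at 1 kb or 4 kb, and 2 overlap rules.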

Additional observations from a re-analysis of the deposited data

Results flagged for a closer look

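At Zeb2 the summed lengths in bp of the antibodies differed in opposite directions from untreated cells in 2 contrasts. Each group has 1 library, and the difference was not tested. From untreated to I-BET the summed BRD3 length changed by -10614 bp and the BRD2 length by 624 bp. From untreated to RANKL it changed by -4459 bp for BRD3 and by 108 bp for BRD2. Both BRD2 differences were small beside the 5126 bp of untreated cells. Neither reached the 1.5 times used below to call a value moved, so BRD2 was nearly unchanged in bp. As a share of the whole list's length, both antibodies were lower at Zeb2 than in untreated cells. BRD2 had 0.930% in untreated cells, 0.276% with RANKL and 0.477% with I-BET, and BRD3 had 0.298%, 0.166% and 0%. The list lengths were not filtered. That of BRD2 with I-BET includes a region of 38569 bp on chromosome 9 and another of 6198 bp on the mitochondrial chromosome. The opposite directions in bp also depend on the score and joining rules. In the top 50% by score BRD3 was 0 bp in all 3 treatments, while BRD2 was 5126 bp in untreated cells, 1786 bp with RANKL and 2523 bp with I-BET. With lists of equal length by score BRD3 was again 0 bp in all 3, and BRD2 was 3316 bp, 0 bp and 2523 bp. With exactly 3 joined peaks BRD3 was 0 bp in untreated cells, 6155 bp with RANKL and 0 bp with I-BET, and BRD2 kept its values of 5126 bp, 5234 bp and 5750 bp. At Rbpj neither antibody moved against the other in the contrasts computed.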

How the results depend on the processing

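No paired analysis was possible because each group has 1 library. A value counted as moved when it changed by more than 1.5 times or to or from 0. Clipping regions to the window moved no summed length. With the gene body alone, Rbpj had 3416 bp and 4961 bp of BRD3 in untreated and RANKL cells and 0 bp and 3792 bp of BRD2; no Zeb2 value moved. With 100 kb each side, Zeb2 had 718 bp and 445 bp of BRD3 with I-BET and with both agents. With exactly 3 joined peaks, Zeb2 had 0 bp of BRD3 in untreated cells and Rbpj 8036 bp with RANKL, since both regions over 10 kb drop out; the order of untreated and RANKL cells at Zeb2 then turns. With the top 50% by score, BRD3 at Zeb2 was 0 bp in untreated and in RANKL cells, and at Rbpj 4419 bp, 8036 bp and, with both agents, 0 bp. BRD2 under that limit was 1786 bp (RANKL) and 2523 bp (I-BET) at Zeb2, and 0 bp (untreated) and 1639 bp (RANKL) at Rbpj. With lists of equal length by score, Zeb2 had 0 bp of BRD3 in untreated and RANKL cells, and 3316 bp, 0 bp and 2523 bp of BRD2 in untreated, RANKL and I-BET cells. Rbpj then had 7835 bp of BRD3 in untreated cells and 8036 bp with RANKL, so these 2 treatments were close. Its BRD2 was 0 bp and 0 bp in untreated and RANKL cells. Both score limits remove both regions over 10 kb. With at least 50% of a region covered, 2 counts of overlapping regions moved, and within 500 bp none. Joining regions less than 1 kb apart moved no count, and joining at 4 kb, chosen after the data were seen, moved 10 counts or widths.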
